A study of Homo sapiens with 6 samples.

Results

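Respiratory complexes II to V are the protein complexes of the inner mitochondrial membrane that act beside or after complex I in oxidative phosphorylation, and their genes were followed in libraries labelled as RN7SK knockout and as wild-type A549 cells. Members were the genes whose symbol begins with SDHA to SDHD, UQCR, COX followed by a digit, or ATP5, together with CYC1 and SURF1. This rule matched 61 of the 16779 genes in the deposited tables: 8 of complex II, 10 of complex III, 26 of complex IV and 17 of complex V. They comprise core and accessory subunits, tissue isoforms, a pair of gene copies, 1 inhibitor protein and assembly factors. All are nuclear genes, and of 13 mitochondrially encoded mRNAs 0 had a row in the tables, so the subunits made inside the organelle were not analysed here.

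Complex II, succinate dehydrogenase, oxidises succinate and reduces coenzyme Q. Complex III, the cytochrome bc1 complex, passes electrons from reduced coenzyme Q to cytochrome c, and complex IV, cytochrome c oxidase, passes them on to oxygen. Complexes III and IV move protons across the inner membrane, and complex V, ATP synthase, lets them return through a ring of c subunits and uses the energy to make ATP. Complexes III to V combine nuclear and mitochondrial gene products, so dedicated assembly factors insert copper, haem and the mitochondrially made core subunits.

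All 6 libraries are labelled as total RNA of A549, a human lung adenocarcinoma line with features of alveolar epithelium. Of these, the labels give 3 as control with the genotype WT and 3 as RN7SK-KO. RN7SK encodes 7SK, a small nuclear RNA that keeps P-TEFb, a kinase needed for transcript elongation, inactive. How the knockout was made, whether it is 1 clone or a pool, and whether the replicates came from separate cultures are not stated, so the p-values measure the spread between these libraries, which may be technical. The design asks which genes differ between cells with and without the RN7SK gene.

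Some measurements bear on the labels and precede the results. RN7SK has no row in the tables, so the knockout was not checked. CDKN2A, a cell cycle inhibitor gene that A549 is known to lack, was counted 963, 1005 and 923 times in the control libraries and 0, 1 and 2 times in the knockout libraries. CDKN2B, its neighbour and also known to be absent from A549, had 216, 241 and 238 counts against 0, 1 and 0. The control libraries thus go against the labelled line in these 2 genes, and a difference of cell line between the groups cannot be told apart from the genotype in any value below. Group names below are those of the labels, and "higher" or "lower" compares the libraries labelled knockout with the libraries labelled control. Endothelial markers also separated the groups: the 4 tested of 8 listed were all lower, and the 8 summed to 162.5 to 175.2 CPM in the control libraries and 4.19 to 4.92 CPM in the knockout libraries. Of 12 listed epithelial markers, 5 were tested and all 5 were higher. The list holds lung and airway genes together with EPCAM, KRT8 and KRT18, which are not particular to lung. The markers summed to 2813 to 2982 CPM in the control and 5408 to 5541 CPM in the knockout libraries. SFTPB and SFTPA1 were at 0 in all 6 libraries, and what each other gene gave to the sums is not reported here. Haematopoietic markers summed to 37.6 to 41.6 CPM in the control and 58.7 to 63.3 CPM in the knockout libraries (3 of 4 tested higher, CD3E at 0). Fibroblast markers summed to 73.4 to 77.5 and 115.8 to 123.5 CPM (3 of 4 tested higher, 1 lower). Liver and testis germ cell markers summed to at most 0.161 and 0.105 CPM in any library. What part these differences have in the values of the respiratory genes was not tested. In bulk RNA, fewer cells of a type and less RNA per cell cannot be told apart.

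Total counts ranged from 16018260 to 19357144 per library. Values are given as CPM (read counts scaled to library size with the trimmed mean of M values) for replicates 1, 2 and 3 of each group in that order, and a gene is called higher or lower at a Benjamini-Hochberg adjusted p under 0.05 in edgeR's quasi-likelihood test, fitted over 12929 genes. That test called 85.0% of all tested genes, 42.0% higher and 43.0% lower, so a call by itself does not set a gene apart. The deposited FPKM (fragments scaled to gene length and to library size) offer a second scale. Dividing counts by FPKM gave back the gene lengths behind them, with the total of each library searched for lengths nearest to whole numbers. The totals found lay above the count totals (18946758 against 18612303 in control replicate 1). With them, at least 99.993% of genes per library had a whole number of bases. These lengths differed between the groups: 5 of 58 members with a length in both groups agreed within 1%, against 32.3% of 14582 genes. Results are therefore given on the count scale and, for the members and lists that are described, also with the recovered lengths as an offset in the same test (the length scale). Whether the gene models behind those lengths also decided which reads were counted was not tested.

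Nuclear genes of the respiratory chain are textbook targets of NRF1 (nuclear respiratory factor 1) and of the ETS family factor GABP, and the promoters of members that moved in both directions are shown to let their letters be set beside the values. RefSeq promoter windows on GRCh38.p14, reaching from 250 bases before to 50 bases after each gene start, covered 48 of the 61 members. They were searched on both strands for the 10-letter NRF1 motif, which reads as the capitals of the first 5 lines with any base at the 1 position that varies within an orientation, and for the ETS letters CCGGAAG, and matches of the 2 motifs overlapped in 0 members. Sequences run 5′ to 3′ on the strand of the gene and carry a match in capitals, in the reverse orientation where the motif lies on the other strand. Each lies before a RefSeq gene start. The start used for COX18 is not its outermost. That gene reaches to 73069759 on chromosome 4, so part of its line lies inside the gene. The lines of SDHD and COX18 each end in a further match that is left in lower case, one of the ETS letters in SDHD and a second of the NRF1 letters in COX18, both reversed.
SDHA (chr5:218124-218319, plus strand): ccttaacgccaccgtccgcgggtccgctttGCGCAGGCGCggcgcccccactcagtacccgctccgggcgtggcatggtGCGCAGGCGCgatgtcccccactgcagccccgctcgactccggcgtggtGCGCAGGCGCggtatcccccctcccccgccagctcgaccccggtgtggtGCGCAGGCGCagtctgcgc
SDHD (chr11:112086733-112086802, plus strand): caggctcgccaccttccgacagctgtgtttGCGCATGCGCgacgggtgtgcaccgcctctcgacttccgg
ATP5PO (chr21:33915805-33915858, minus strand): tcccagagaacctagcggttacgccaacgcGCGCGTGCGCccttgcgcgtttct
ATP5F1C (chr10:7788125-7788176, plus strand): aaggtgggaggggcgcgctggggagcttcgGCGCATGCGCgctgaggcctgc
COX18 (chr4:73069724-73069793, minus strand): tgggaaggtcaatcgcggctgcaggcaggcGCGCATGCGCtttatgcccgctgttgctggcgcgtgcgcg
COX15 (chr10:99732128-99732165, minus strand): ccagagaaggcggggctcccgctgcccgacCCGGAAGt
SDHB (chr1:17054124-17054190, minus strand): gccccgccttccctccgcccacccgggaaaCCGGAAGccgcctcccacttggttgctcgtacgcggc
UQCRH (chr1:46303622-46303688, plus strand): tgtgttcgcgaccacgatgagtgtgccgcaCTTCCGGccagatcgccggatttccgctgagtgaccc

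The SDHA run holds the NRF1 letters 4 times in the same orientation, each start 49 bases after the one before. SDHA, SDHD and ATP5PO were called lower and ATP5F1C and COX18 higher, so the same letters stood in promoter windows of genes of both directions. The COX15 gene, called higher, and the SDHB and UQCRH genes, called lower, likewise share the ETS letters. In all, 14 of 48 members with a window held the NRF1 letters (29.2%). The share was 12.8% of 10443 tested genes and 6.98% of all 27305 genes with a window, counting a gene if any of its windows matched. The ETS letters stood in 22 of 48 members (45.8%), compared with 21.9% of tested genes and 12.2% of all genes with a window. Both motifs stood in 5 members. By direction, 5 of 15 members called higher and 7 of 26 called lower held the NRF1 letters, and 6 of 15 and 14 of 26 held the ETS letters. A match is a description of these windows and not a measured binding site. The NRF1 gene itself had 22.8, 24.9 and 24.8 CPM in the control and 22.3, 23.96 and 24.3 CPM in the knockout libraries and was not called (log2 fold change -0.041 ± 0.076, edgeR adjusted p = 0.618; length scale -0.10). GABPA, which encodes the DNA-binding subunit of GABP, was lower (log2 fold change -0.35 ± 0.068, adjusted p = 1.61e-05; length scale -0.29), as was its partner GABPB1 (-0.90 ± 0.075, adjusted p = 4.49e-13; length scale -0.43). NRF1 and GABPA were named here after their values were seen.

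Of the 61 members, 55 had enough counts to be tested, and the remaining 6 (COX4I2, COX6B2, COX7A1, COX7B2, COX8C and ATP5MGL) had 9 counts or fewer in any library. On the count scale 16 of the 55 were higher and 33 lower in the knockout libraries, against 42.0% higher and 43.0% lower of all tested genes, and 6 were not called. The median log2 fold change of the members was -0.20 and that of all tested genes was -0.0070. The members' median was -0.43 with lengths. It was -0.118 with upper quartile factors and -0.115 over the 52 members with a mean of at least 10 CPM. These last settings also moved the log2 fold changes of all genes, by a median of 0.087 and 0.088. Subunits and assembly factors are given apart. Of 38 tested subunit genes, 8 were higher and 28 lower in counts (median -0.46), and 9 and 26 with lengths (median -0.49). Of 15 tested assembly factors, 8 were higher and 3 lower in counts (median 0.17), and 7 and 6 with lengths (median 0.027). By complex, 2 were higher and 4 lower in complex II, 1 and 7 in complex III, 11 and 8 in complex IV, and 2 and 14 in complex V; with lengths these were 3 and 4, 1 and 7, 8 and 11, and 5 and 11. In 32 members every control library lay above every knockout library and in 14 every knockout library lay above, which compares with 43.2% and 42.4% of all tested genes. The difference between subunits and assembly factors is a description of these lists and was not tested.

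**Figure D1:**
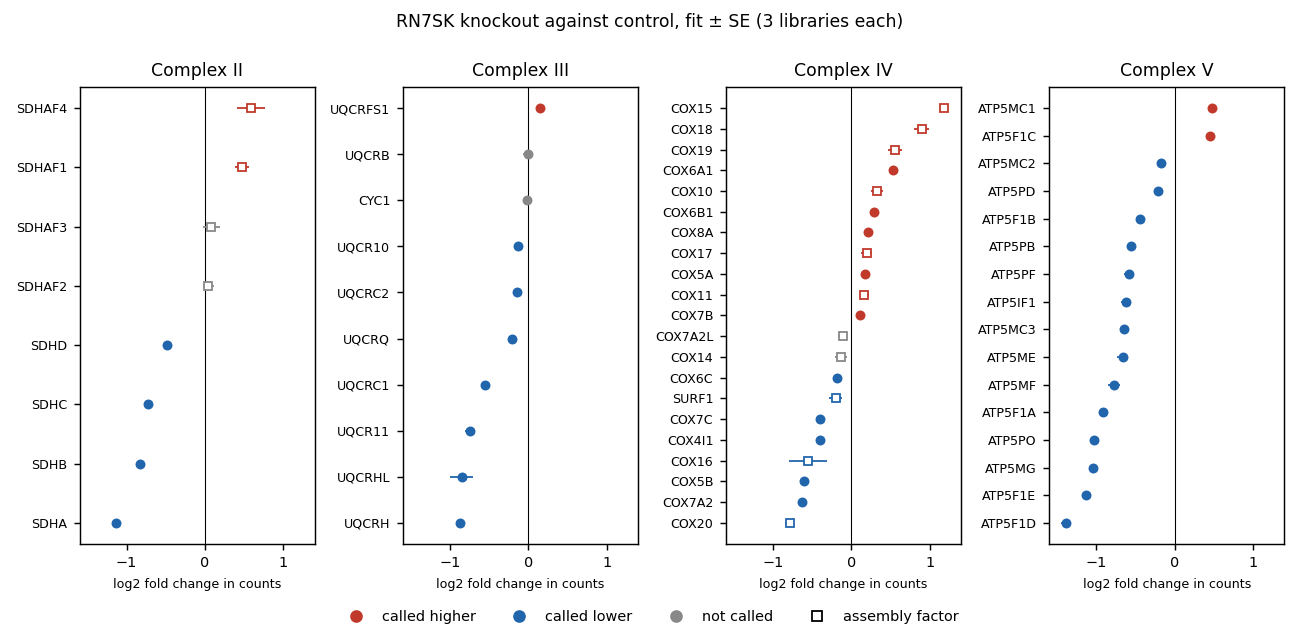
Log2 fold change in counts (x axis, RN7SK knockout against control, fit ± SE, 3 libraries per group) for the 55 tested members, in 4 panels by complex, with assembly factors as open squares and all other members as filled circles. Red marks the 16 members called higher, blue the 33 called lower and grey the 6 not called, and the panel of complex V has only ATP5MC1 and ATP5F1C right of 0.

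With the recovered lengths as an offset, the totals stayed close (17 higher, 33 lower, 5 not called, against 41.9% and 43.2% of 12842 tested genes and 85.1% in either direction), but not all of the genes were the same. The call was in the same direction on both scales for 36 of 55 members (26 lower and 10 higher), where the same held for 78.4% of all genes. It was in opposite directions for 9 of 55 members (16.4%), compared with 2.38% of all genes. On log2(FPKM + 0.1) limma called 17 members higher and 33 lower, against 45.6% and 39.3% of all tested genes (84.9% in either direction). Against a fold change of 1.5 (glmTreat on counts, 46.2% of all genes called), 2 members were higher and 13 lower, where 24.4% and 21.7% of all tested genes were.

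One library stood apart within its group. Control replicate 2 had the highest CPM of the 3 controls in 45 of 55 tested members (81.8%), compared with 37.2% of all tested genes, and in 16 of 16 members of complex V. Without it, 16 members were higher and 31 lower and the median was -0.18, and COX6C and UQCR10 were no longer called.

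**Figure D2:**
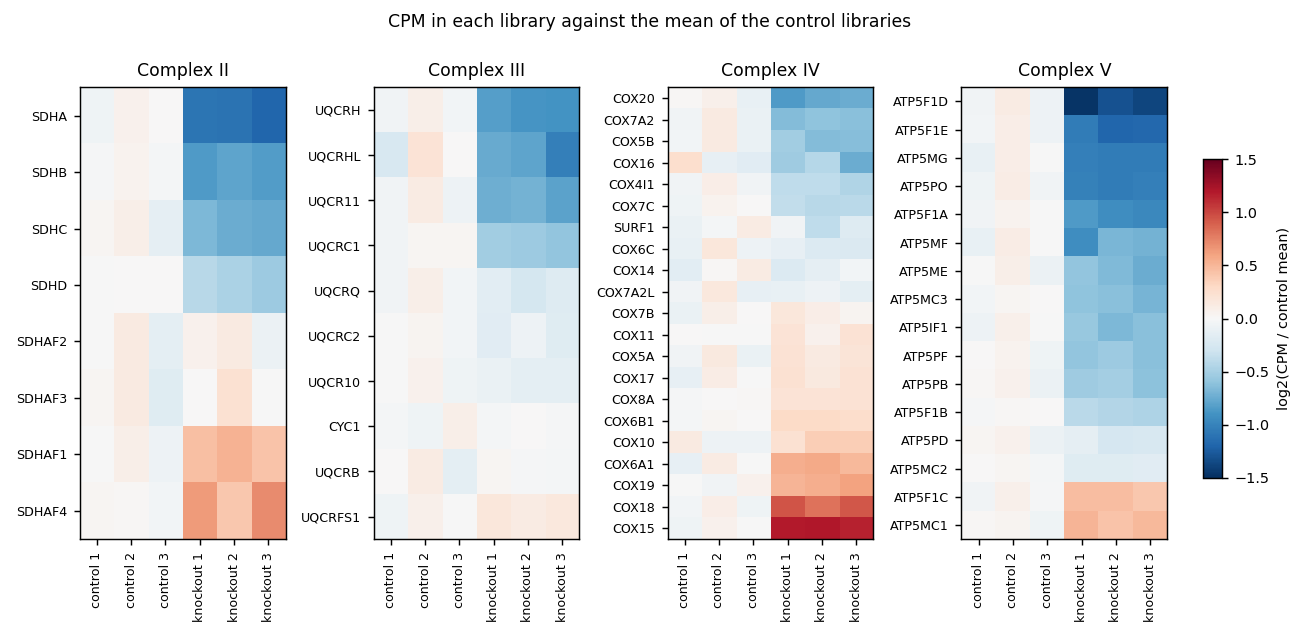
CPM of each tested member in each of the 6 libraries as log2 of the ratio to the mean of the 3 control libraries (colour scale, blue below and red above the control mean), in 4 panels by complex with 1 row per gene and 1 column per library. The 3 knockout columns have similar shades in most rows, and the column of control replicate 2 is slightly redder than its neighbours in most rows.

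All 4 subunit genes of succinate dehydrogenase were lower in the knockout libraries on the count scale (SDHC was higher with lengths), and 2 of its 4 assembly factors were higher and 0 lower (2 higher and 1 lower with lengths). SDHA (chromosome 5, 218320 to 268746, GRCh38), the flavoprotein subunit that oxidises succinate, had 304, 334 and 319.7 CPM in the control libraries and 149, 149 and 139.8 CPM in the knockout libraries. The knockout values were all below the lowest control value (log2 fold change -1.13 ± 0.046, fit ± SE, n = 3 per group, edgeR adjusted p = 1.33e-21). SDHB, the iron-sulphur subunit, had 124, 129 and 122 CPM in the control libraries and 69.6, 72.2 and 69.7 CPM in the knockout libraries, a 1.77-fold lower mean (log2 fold change -0.83 ± 0.050, adjusted p = 1.05e-16).

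SDHC and SDHD encode the membrane anchors that bind coenzyme Q. SDHC had 134, 139 and 119 CPM in the control and 82.3, 78.2 and 76.6 CPM in the knockout libraries (log2 fold change -0.73 ± 0.055, adjusted p = 5.92e-14). SDHD had 66.7, 67.5 and 67.5 CPM in the control and 50.4, 48.3 and 45.9 CPM in the knockout libraries (log2 fold change -0.48 ± 0.057, adjusted p = 2.38e-09). The groups did not overlap in either gene, and the 3 SDHD controls were nearly equal. On the length scale SDHA, SDHB and SDHD stayed lower, at -0.57, -0.70 and -0.49, whereas SDHC was higher, at 0.34 (adjusted p = 1.15e-06). The gene length of SDHC was 2858 bases in the control tables and 1308 in the knockout tables, and its FPKM were 45.7, 47.4 and 40.6 in the controls and 62.3, 59.04 and 58.5 in the knockout libraries. The lower call of SDHC thus holds for counts and not for counts per length.

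Among the assembly factors, SDHAF1, which serves iron-sulphur insertion into SDHB, had 13.8, 14.7 and 13.1 CPM in the control and 19.04, 19.96 and 18.6 CPM in the knockout libraries and was higher on both scales (0.47 and 0.42). SDHAF4, which binds the flavinylated SDHA subunit, had 2.92, 2.88 and 2.77 CPM in the control and 4.46, 3.76 and 4.67 CPM in the knockout libraries, the lowest level of the complex. It was higher in counts (0.59 ± 0.18, adjusted p = 0.00288) and lower on the length scale (-0.64, adjusted p = 0.00156), with lengths of 525 and 1183 bases. SDHAF2, which promotes flavin attachment to SDHA, was the member of complex II closest to 0 (37.97, 41.99 and 34.6 against 39.8, 42.01 and 35.98 CPM) and was called on neither scale. SDHAF3, which acts with SDHAF1, was not called in counts (0.082, adjusted p = 0.478) and was higher with the lengths (1.13).

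In complex III, 7 of 10 members were lower, 1 was higher and 2 were not called in counts. UQCRH, the hinge protein that helps cytochrome c1 meet cytochrome c, had 184, 203 and 186 CPM in the control and 108, 104 and 103 CPM in the knockout libraries, with no overlap (log2 fold change -0.87 ± 0.048, edgeR adjusted p = 1.14e-17; length scale -0.76). UQCR11, a small accessory subunit, had 119, 134 and 117 CPM in the control and 74.3, 75.4 and 70.7 CPM in the knockout libraries (-0.75 ± 0.054, adjusted p = 1.46e-14; length scale -0.77). UQCRC1, a core subunit that faces the matrix, had 228, 241 and 243 CPM in the control and 165, 162 and 157 CPM in the knockout libraries (-0.55 ± 0.044, adjusted p = 1.8e-13; length scale -0.60). These 3 genes were lower on both scales, as was the accessory subunit UQCRQ (-0.20 and -0.25). UQCRHL, an intronless copy of UQCRH, had 6.54, 8.9 and 7.79 CPM in the control and 4.57, 4.48 and 3.81 CPM in the knockout libraries, and its log2 fold change of -0.85 was close to that of UQCRH (-0.87). How reads that fit both copies were assigned is not stated, so UQCRHL is uncertain.

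UQCRFS1 encodes the Rieske iron-sulphur protein and CYC1 cytochrome c1, the electron carriers of the complex that are made from nuclear genes. UQCRFS1 had 158, 175 and 165 CPM in the control and 187, 181 and 185 CPM in the knockout libraries, the only higher call of the complex in counts (0.15 ± 0.046, adjusted p = 0.00347). That call was lost without control replicate 1 (0.11, adjusted p = 0.0515), and on the length scale the gene was lower (-1.25, adjusted p = 7.45e-22), with lengths of 1224 and 3086 bases. CYC1 had 204, 201 and 223 CPM in the control and 205, 209 and 207 CPM in the knockout libraries, the groups overlapped, and it was not called in counts (-0.016 ± 0.045, adjusted p = 0.745). With lengths of 2426 and 1795 bases it was higher on the length scale (0.36, adjusted p = 1.32e-08).

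UQCRB, which lies near the coenzyme Q site, had 142, 155 and 128 CPM in the control and 144, 140.1 and 139 CPM in the knockout libraries and was the member nearest to no change (-0.0088 in counts, -0.85 with lengths of 5070 and 8710 bases). UQCRC2, the partner of UQCRC1, was lower in counts only (179, 185 and 175 against 159.8, 170.3 and 159 CPM, -0.14, adjusted p = 0.00502; length scale 0.0061). UQCR10, another small subunit, was also lower in counts only (85.6, 89.6 and 82.02 against 80.2, 77.7 and 77.5 CPM, -0.13, adjusted p = 0.0245; length scale -0.10). Its call was lost without control replicate 2 (-0.098, adjusted p = 0.0589), without knockout replicate 2 (-0.12, adjusted p = 0.0742) and without knockout replicate 3 (-0.12, adjusted p = 0.0822).

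Complex IV was the only complex with more members higher (11) than lower (8) in counts, and its subunits split evenly, with 5 of 10 higher and 5 lower. With lengths 8 members were higher and 11 lower, and 3 and 6 of the subunits. COX4I1, a large nuclear subunit that responds to ATP, had 391, 433 and 391 CPM in the control and 311, 311 and 297 CPM in the knockout libraries, with no overlap (log2 fold change -0.40 ± 0.045, edgeR adjusted p = 4.54e-10; length scale -0.25). COX7A2, the widely expressed form of subunit 7A, had 86.05, 98.1 and 82.96 CPM in the control and 56.7, 58.5 and 57.6 CPM in the knockout libraries (-0.63 ± 0.059, adjusted p = 1.02e-11; length scale -0.73). The zinc-binding subunit COX5B (-0.60 and -1.11 on the 2 scales) and the small membrane subunit COX7C (-0.40 and -1.09) were lower on both. COX6C was lower in counts only, with 90.2, 109.5 and 92.8 CPM in the control and 89.5, 84.3 and 84.1 CPM in the knockout libraries (-0.18 ± 0.060, adjusted p = 0.00688; length scale 0.01). Its control replicate 2 lay above the others, and without that library the value was -0.093 (adjusted p = 0.064).

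The subunits COX6A1, COX6B1 and COX8A were higher on both scales. COX6A1 had 131, 155 and 142 CPM in the control and 207, 211 and 199.5 CPM in the knockout libraries (0.53 ± 0.051, adjusted p = 2.84e-11; length scale 0.56). COX6B1, which bridges the monomers of the dimeric enzyme, had 167, 174 and 172 CPM in the control and 209, 209 and 206 CPM in the knockout libraries (0.28 ± 0.043, adjusted p = 3.87e-07; length scale 0.50). COX8A had 184, 188 and 189 CPM in the control and 216, 215 and 218 CPM in the knockout libraries (0.21 ± 0.043, adjusted p = 3.12e-05; length scale 0.19). In all 3 genes every knockout library lay above every control library.

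COX5A and COX7B went in opposite directions on the 2 scales. COX5A, a matrix-side subunit, had 115, 133 and 112 CPM in the control and 139, 131 and 137 CPM in the knockout libraries, and the groups overlapped through control replicate 2 (0.18 ± 0.054, adjusted p = 0.00331). Its length scale value was -0.49 (adjusted p = 2.21e-09), with lengths of 770 and 1173 bases. COX7B, a small membrane subunit, had 137, 156 and 147 CPM in the control and 165, 157 and 151 CPM in the knockout libraries (0.11 ± 0.050, adjusted p = 0.0468). Behind its FPKM lay 456 bases in the control tables and 2444 in the knockout tables, and the FPKM fell from 293, 332 and 314 to 66.97, 63.3 and 61.8 (length scale -2.38, adjusted p = 2.92e-28). The count call of COX7B was lost on leaving out control replicate 1 (0.050), control replicate 3 (0.10), knockout replicate 1 (0.070) or knockout replicate 2 (0.11), with adjusted p of 0.377, 0.082, 0.273 and 0.0835.

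Tissue isoforms of complex IV were near 0 in both groups. COX4I2, the isoform of COX4I1 known from lung and from low oxygen, and COX7B2 had 0 counts in all 6 libraries, where a count of 0 allows up to 3 counts per library (counting error only) and COX4I1 had 4825 to 8276. COX7A1, the heart and skeletal muscle isoform, had 1 count over the 6 libraries, COX6B2 had 2 in the controls and 8 in the knockout group, and COX8C had 1 in each group. Skeletal and heart muscle markers summed to 0.68 to 1.78 CPM in the control and 0.12 to 0.59 CPM in the knockout libraries, with MYH6 and DES at 0. COX6A2, the muscle isoform of COX6A1, was not analysed here. COX4I1, COX6B1, COX7B and COX8A therefore gave at least 99.98% of the mean FPKM of their families among the isoforms listed in the tables. COX7A2L, also named SCAF1, joins complex III to complex IV in supercomplexes. Its share of the summed FPKM of COX7A1, COX7A2 and COX7A2L was 44.9 ± 0.39% in the controls and 48.8 ± 0.55% in the knockout group (mean ± SD, n = 3). As a share of their counts it was 57.6 ± 0.385% and 66.03 ± 0.49%, and its lengths were 2030 and 2559 bases. COX7A2L had 117, 136 and 111 CPM in the control and 112, 115 and 109 CPM in the knockout libraries and was not called (-0.11 ± 0.058, adjusted p = 0.0692), but passed without control replicate 1 (-0.15, adjusted p = 0.047) or control replicate 3 (-0.18, adjusted p = 0.00497) and on the length scale (-0.51).

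Assembly factors of complex IV held the largest increases of all members in counts, those of COX15 and COX18, and 6 of 11 were higher and 3 lower, compared with 5 and 5 with lengths. COX15, which with COX10 makes the haem A of the enzyme, had 42.5, 46.2 and 44.3 CPM in the control and 102, 102 and 98.4 CPM in the knockout libraries, a 2.27-fold higher mean (log2 fold change 1.18 ± 0.055, edgeR adjusted p = 5.92e-20). Its lengths were 7318 and 7283 bases, and the length scale gave 1.13. COX18, which inserts part of the mitochondrially made subunit 2 into the membrane, had 10.3, 11.3 and 10.1 CPM in the control and 20.3, 18.6 and 20.2 CPM in the knockout libraries (0.90 ± 0.094, adjusted p = 1.3e-10). With lengths of 4541 and 6871 bases the length scale value of COX18 was 0.24 (adjusted p = 0.0195). COX10 (0.32 and 0.31 on the 2 scales) and the copper-related factor COX19 (0.55 and 0.51) were also higher on both. The haem A pair thus differed in size, with knockout means 2.27 and 1.25 times the control means for COX15 and COX10.

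COX17, the copper chaperone that feeds the copper sites of the enzyme, had 24.7, 29.1 and 26.8 CPM in the control and 31.4, 29.7 and 31.2 CPM in the knockout libraries (0.19 ± 0.073, adjusted p = 0.014). It was lower on the length scale (-0.97, adjusted p = 7.72e-14), with lengths of 423 and 912 bases, and its count call was lost without control replicate 1 (0.13, adjusted p = 0.12) or knockout replicate 1 (0.18, adjusted p = 0.0569). COX11, which delivers copper to subunit 1, had 63.5, 62.9 and 62.6 CPM in the control and 72.7, 66.03 and 73.3 CPM in the knockout libraries (0.17 ± 0.056, adjusted p = 0.00685), was not called on the length scale (0.027), and lost its call without knockout replicate 3 (0.14, adjusted p = 0.0537). COX20, which stabilises newly made subunit 2, went the other way, with 67.7, 70.5 and 61.9 CPM in the control and 37.00, 39.1 and 39.8 CPM in the knockout libraries (-0.79 ± 0.062, adjusted p = 9.98e-14; length scale -0.62). COX16, another assembly factor linked to subunit 2, was low in level (1.23 mean FPKM in the control group) and lower on both scales (-0.56 ± 0.25 and -0.58).

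SURF1, which acts early in building subunit 1 and is a known Leigh syndrome gene, had 25.9, 27.3 and 30.3 CPM in the control and 26.7, 21.4 and 24.4 CPM in the knockout libraries. The groups overlapped through knockout replicate 1. The log2 fold change was -0.20 ± 0.081 in counts (adjusted p = 0.0233) and -0.32 on the length scale (adjusted p = 0.0007). The count call was lost without control replicate 3 (-0.14, adjusted p = 0.13) and without knockout replicate 2 (-0.12, adjusted p = 0.199). COX14, another early factor for subunit 1, was not called in counts (-0.13) and was higher with lengths of 999 and 544 bases (0.68).

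In ATP synthase 14 of 16 tested members were lower and 2 higher in counts, against 43.0% and 42.0% of all tested genes. In 0 of the 16 did the groups overlap, and the ranges were likewise apart in 85.6% of all tested genes. With lengths 11 were lower and 5 higher. The catalytic head F1 is made of the alpha, beta, gamma, delta and epsilon subunits. ATP5F1B (beta), which holds the catalytic sites, was the most abundant member, with 1260.3, 1297 and 1285 CPM in the control and 965, 944 and 929 CPM in the knockout libraries (log2 fold change -0.44 ± 0.038, edgeR adjusted p = 1.36e-12; length scale -0.43). It also ranked first of the complex by mean FPKM in both groups (677 and 534). ATP5F1A (alpha) had 661, 709.6 and 685 CPM in the control and 379.5, 359 and 351 CPM in the knockout libraries (-0.92 ± 0.042, adjusted p = 5.54e-20; length scale -2.21, with lengths of 2719 and 6401 bases).

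The central stalk joins the head to the c ring, and its 3 genes did not move together. ATP5F1D (delta) had the largest decrease of all members in counts, from 107, 122 and 105 CPM to 40.1, 44.8 and 42.9 CPM (-1.39 ± 0.061, adjusted p = 3.05e-20; length scale -0.81). ATP5F1E (epsilon) fell from 257, 284 and 251 CPM to 127, 116 and 117 CPM (-1.14 ± 0.050, adjusted p = 4.53e-20). Behind its FPKM lay 439 bases in the control tables and 3610 in the knockout tables, so the values went from 573, 629 and 555 to 34.9, 31.7 and 32.4 and its rank by mean FPKM in the complex from 2 to 16 (length scale -4.24). ATP5F1C (gamma), the rotating shaft, was instead higher, with 134, 147 and 137 CPM in the control and 192, 193 and 185 CPM in the knockout libraries (0.45 ± 0.046, adjusted p = 1.16e-10; length scale 0.45).

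The peripheral stalk, which keeps the head from turning, was lower throughout in counts. ATP5PO, the subunit that confers oligomycin sensitivity, had 139, 157 and 141 CPM in the control and 71.9, 70.5 and 71.3 CPM in the knockout libraries (-1.03 ± 0.052, adjusted p = 7.36e-19; length scale -0.998). ATP5PB (b subunit, -0.55 in counts and -0.92 with lengths) and ATP5PD (d subunit, -0.21 and -0.24) were lower on both scales. ATP5PF (F6) had 89.3, 92.1 and 84.6 CPM in the control and 58.8, 60.8 and 57.6 CPM in the knockout libraries (-0.59 ± 0.054, adjusted p = 6.9e-12) but was higher on the length scale (0.16, adjusted p = 0.00862; 2618 and 1501 bases). Of the supernumerary membrane subunits, ATP5MG (g), which helps ATP synthase form dimers, had 201, 234 and 217 CPM in the control and 106, 105 and 105 CPM in the knockout libraries (-1.04 ± 0.050, adjusted p = 1.47e-19; length scale -0.85). ATP5ME (e, -0.66 and -0.45) and ATP5MF (f, -0.77 and -0.63) were lower on both scales as well. ATP5MGL, a copy of ATP5MG, had 9 counts or fewer in each library and was not tested.

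ATP5IF1 encodes the inhibitor that stops ATP synthase from running backwards and hydrolysing ATP. It had 56.3, 62.7 and 58.96 CPM in the control and 39.95, 37.05 and 38.5 CPM in the knockout libraries and was lower in counts (-0.62 ± 0.061, adjusted p = 3.23e-11). The gene length was 2270 bases in the control tables and 579 in the knockout tables. Its FPKM were 24.2, 26.8 and 25.2 in the controls and 68.3, 63.2 and 66.4 in the knockout libraries, and the length scale called it higher (1.29, adjusted p = 7.46e-19).

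The c ring is built from 1 mature protein that 3 genes encode with different import sequences, and the balance among these genes differed between the groups. ATP5MC1 had 74.4, 75.4 and 70.2 CPM in the control and 105, 98.7 and 103 CPM in the knockout libraries (0.48 ± 0.052, adjusted p = 3e-10; length scale 0.58). ATP5MC3 had 175, 183 and 181 CPM in the control and 119, 116 and 111 CPM in the knockout libraries (-0.64 ± 0.046, adjusted p = 1.19e-14; length scale -0.30). ATP5MC1 was thus higher and ATP5MC3 lower on both scales. ATP5MC2 had 185, 188 and 181 CPM in the control and 163, 163 and 164 CPM in the knockout libraries, lower in counts (-0.18 ± 0.044, adjusted p = 0.000402) and higher on the length scale (0.36, adjusted p = 5.49e-09; 3894 and 2578 bases).

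As a share of the summed FPKM of the 3 genes, ATP5MC1 made up 54.8, 54.3 and 53.1% in the controls and 63.2, 62.0 and 63.2% in the knockout libraries. The ATP5MC3 share went from 23.3 ± 0.73% to 14.7 ± 0.47% (mean ± SD, n = 3) and the ATP5MC2 share was 22.6 ± 0.16% and 22.5 ± 0.47%. The groups did not overlap for ATP5MC1 or ATP5MC3, which is the most that 3 libraries against 3 can show, since the smallest exact two-sided permutation p is 0.1. As a share of counts, without regard to length, ATP5MC1 made up 16.8 ± 0.47% in the controls and 26.8 ± 0.58% in the knockout group, so its share was larger in the knockout libraries on both scales.

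**Figure D3:**
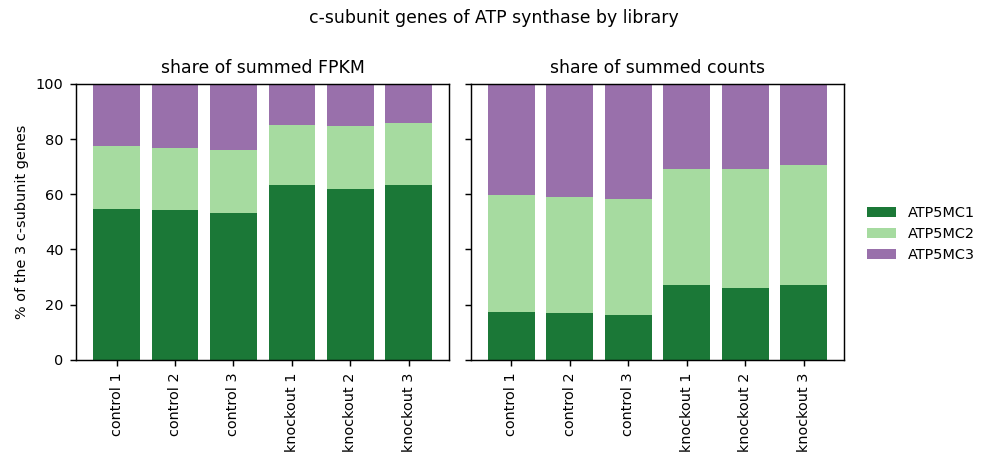
Share of each c-subunit gene (y axis, % of the 3 genes, stacked bars, 1 bar per library) in the summed FPKM (left) and in the summed counts (right). ATP5MC1, the lowest segment, is larger in each of the 3 knockout bars than in each of the 3 control bars in both panels, and ATP5MC3, the top segment, is smaller.

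The 9 members called in opposite directions on the 2 scales were SDHC, SDHAF4, UQCRFS1, COX5A, COX7B, COX17, ATP5IF1, ATP5MC2 and ATP5PF. In SDHAF4, UQCRFS1, COX5A, COX7B and COX17 the knockout length was longer and the gene went from higher in counts to lower, and in SDHC, ATP5IF1, ATP5MC2 and ATP5PF it was shorter and the gene went from lower to higher. A further 4 were called in counts only (UQCRC2, UQCR10, COX6C and COX11), 5 with lengths only (SDHAF3, CYC1, UQCRB, COX7A2L and COX14), and SDHAF2 on neither scale. By length, 12 tested members were at least 1.25 times longer in the knockout tables, and 6 of them were higher and 4 lower in counts. The 10 that were at least 1.25 times shorter had 0 higher and 7 lower calls. Among all tested genes, 372 of 804 longer genes were higher and 292 lower, and 435 of 1225 shorter genes were higher and 593 lower. The 33 members within 1.25 times had 10 higher and 22 lower calls. Over the 55 members the log2 fold change in counts and the log2 length ratio had a Pearson r of 0.13 and a Spearman rho of 0.29, compared with 0.061 and 0.074 over 12842 genes, as a description across genes of the same 6 libraries.

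**Figure D4:**
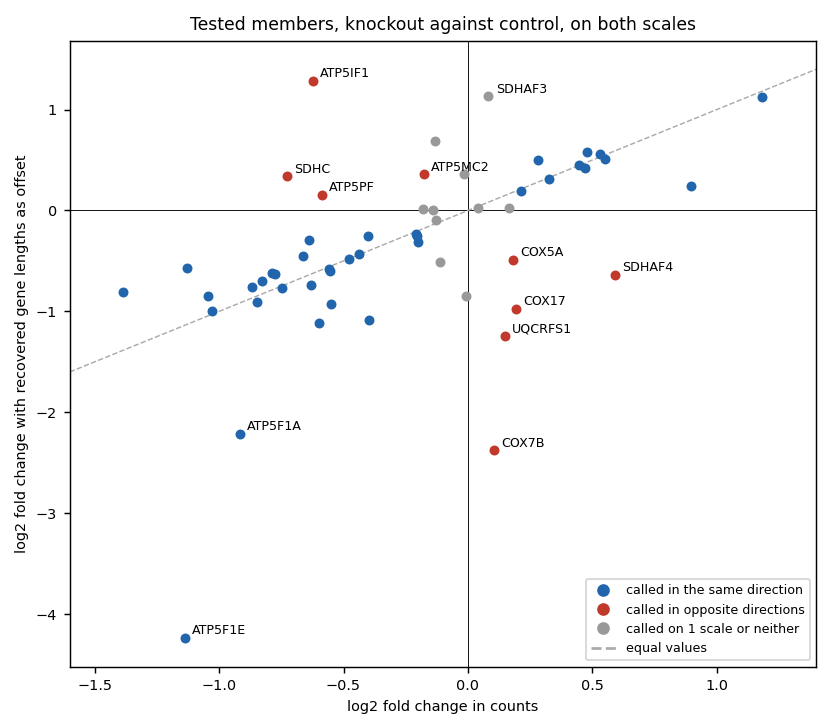
Log2 fold change with recovered gene lengths as an offset (y axis) against log2 fold change in counts (x axis) for the 55 tested members, with a dashed line of equal values. Red points are the 9 members called in opposite directions, blue the 36 called in the same direction and grey the other 10, and ATP5F1E (-1.14 in counts, -4.24 with lengths) lies farthest below the line.

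The position of the genes was a measure the rule did not use. Each member was set beside the other tested genes within 1 Mb of it, and 53 tested members had at least 3 such neighbours. Across these members the log2 fold change and the median of the neighbours had a Pearson r of 0.60 and a Spearman rho of 0.65, and across 12384 tested genes the same measures were 0.26 and 0.29. Both are descriptions, since windows overlap (ATP5F1D and UQCR11 lie close together on chromosome 19) and all values come from the same libraries. The counts of called neighbours stand beside 42.0% higher and 43.0% lower of all tested genes. ATP5PO (chromosome 21, 33903453 to 33915804) had 15 neighbours, of which 15 were lower, with a median of -0.92. ATP5PF, on the same chromosome, had 5 of 5 lower (median -1.403). Around SDHA, near the start of chromosome 5, 10 of 15 neighbours were lower and 4 higher (median -0.63), and around ATP5F1D 42 of 62 were lower and 16 higher (median -0.56).

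Some members called higher lay among genes that were mostly higher, where 42.0% of all tested genes were higher and 43.0% lower. ATP5F1C (chromosome 10, 7788177 to 7807801) had 5 of 6 neighbours higher and 0 lower (median 1.100), COX15 (chromosome 10, 99694293 to 99732127) had 9 of 15 higher and 1 lower (median 0.47), and ATP5MC1 (chromosome 17, 48892787 to 48895871) had 20 of 28 higher and 3 lower (median 0.54). Of the members with at least 3 neighbours, 4 of 15 called higher and 9 of 32 called lower had a neighbour median of the opposite sign. The share over all tested genes is not given here. Among these were SDHAF4, higher in counts among 4 neighbours that were all lower (median -1.08), and UQCRFS1, higher with 4 of 5 lower (median -0.15). Neighbours were compared in counts only. Of the 4 called higher, SDHAF4 (-0.64), UQCRFS1 (-1.25) and COX7B (-2.38) were lower on the length scale, and SDHAF1 was higher (0.42). ATP5PD was lower among neighbours of which 30 of 43 were higher (median 0.35), ATP5ME with 11 of 18 higher (median 0.41) and SURF1 with 15 of 24 higher (median 0.29). COX20, one of the clearest decreases of complex IV, had a neighbour median of 0.081. What the region contributes to each gene's value was not tested.

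**Figure D5:**
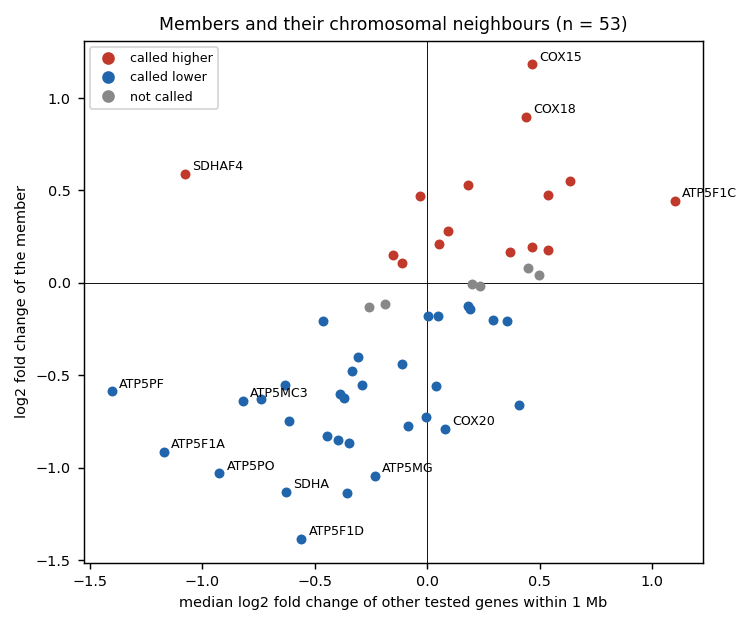
Log2 fold change in counts of each member (y axis) against the median log2 fold change of the other tested genes within 1 Mb (x axis), for the 53 tested members with at least 3 neighbours. Red members (called higher) lie mostly to the right and blue members (called lower) mostly to the left, and SDHAF4, at -1.08 on the x axis, is a red point on the left.

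Other genes of the pathway were taken from lists. Their counts of calls stand beside 42.0% higher and 43.0% lower of all tested genes (41.9% and 43.2% with lengths). Complex I, which feeds electrons into the same chain, was lower in 30 of 37 tested nuclear subunit genes and higher in 5 (median -0.52). With lengths, 26 were lower and 4 higher (median -0.58). NDUFS6, a zinc-binding subunit of complex I, had the smallest p of that list, with 143, 155 and 136 CPM in the control and 46.7, 44.99 and 45.1 CPM in the knockout libraries (-1.67 ± 0.055, adjusted p = 4.7e-24; length scale -1.65). Assembly and copper delivery factors outside the naming rule had no such lean, with 11 of 31 higher, 11 lower and a median of -0.051 (10 higher, 12 lower and -0.045 with lengths). Of these, OXA1L, the insertase for mitochondrially made subunits, had 115, 110.2 and 115 CPM in the control and 214, 217 and 200 CPM in the knockout libraries (0.89 ± 0.046; length scale 0.13). ATPAF1, a chaperone of the beta subunit, was higher in counts (1.28 ± 0.073) and less so with lengths (0.17). HIGD2A, from the same list, was higher in counts (0.83 ± 0.052) and more so with lengths (1.22). BCS1L, which inserts the Rieske protein into complex III, was lower in counts (-1.04 ± 0.067) and was not called with lengths (0.11, adjusted p = 0.142). SCO1 (0.046, adjusted p = 0.427) and SCO2 (-0.051, adjusted p = 0.546), which receive copper from COX17, were not called and were named after their values were seen.

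The mobile carriers that link the complexes were treated apart. CYCS, cytochrome c, had 259, 269 and 237 CPM in the control and 237, 225 and 236 CPM in the knockout libraries (-0.13 ± 0.046, adjusted p = 0.00926; length scale -0.16). HCCS, which attaches haem to cytochromes c and c1, was higher (0.82 ± 0.063; length scale 0.82), as was NDUFA4, a late subunit of complex IV (0.26 ± 0.050; length scale 0.22). Genes of coenzyme Q synthesis were mostly higher, 9 of 13 in counts with 3 lower (median 0.44) and 10 of 13 with lengths. Of all tested genes 42.0% were higher and 43.0% lower in counts, and 41.9% were higher with lengths. COQ8A, a kinase-like regulator of that pathway, had 21.9, 21.3 and 21.7 CPM in the control and 54.3, 57.8 and 58.7 CPM in the knockout libraries (1.397 ± 0.065, adjusted p = 6.75e-20; length scale 1.36), and the hydroxylase gene COQ7 was higher as well (0.90 ± 0.077; length scale 1.02).

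Enzymes of the tricarboxylic acid cycle and pyruvate dehydrogenase, the source of succinate and NADH, were higher in 9 and lower in 6 of 18 cases in counts (median 0.12), but higher in 7 and lower in 8 with lengths (median 0.0033). Carriers of adenine nucleotides and phosphate together with the outer membrane channels were lower in 5 of 8 and higher in 1 on both scales (median -0.35, length scale median -0.53). Import and chaperone genes were lower in 14 of 21 and higher in 6 (median -0.30), with 11 and 7 on the length scale (median -0.22). Genes of cristae organisation were higher in 6 of 10 and lower in 3 (median 0.15), with 6 and 2 on the length scale (median 0.19). For each list in this paragraph, the shares of all tested genes were 42.0% higher and 43.0% lower in counts. With lengths they were 41.9% and 43.2%. Among 25 regulators of mitochondrial biogenesis and mtDNA expression, 5 were higher and 14 lower on both scales (median -0.25, length scale median -0.24). PPARGC1A, the coactivator PGC-1alpha that is known to induce respiratory genes, was 12.8 times higher, with 5.13, 4.92 and 5.91 CPM in the control and 66.4, 67.5 and 70.1 CPM in the knockout libraries (3.67 ± 0.082, adjusted p = 4.68e-29; length scale 3.72). ESRRA, a nuclear receptor that it coactivates, had 45.3, 41.7 and 43.6 CPM in the control and 94.3, 91.5 and 91.4 CPM in the knockout libraries (1.09 ± 0.055; length scale 0.87). TFAM, which packages mitochondrial DNA and helps to start its transcription, was lower (-0.60 ± 0.052 in counts and -0.59 on the length scale). It had 132, 125 and 117 CPM in the control and 84.4, 81.3 and 80.8 CPM in the knockout libraries. PPARGC1A and ESRRA were among the 5 higher regulators, beside 14 that were lower. In the same libraries 28 of 38 respiratory subunit genes were lower in counts and 26 with lengths, against 43.0% and 43.2% of all tested genes. Whether these regulators bear on the subunit genes was not tested.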

How the data were processed

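The authors deposited, for each of 6 libraries, raw whole-number counts by gene symbol and, in a second table, FPKM. Per the labels' protocols, total RNA was extracted with TRIzol and libraries were made with an mRNA kit. Tools in the submitters' processing notes are HISAT2 2.2.1.0, Trimmomatic 0.36 and FastQC 0.11.5, with GRCh38 as the build. The read counter, gene annotation and strand setting were not given in these sources, so close copies and overlapping genes may share reads. All 12 tables list the same 16779 genes.

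Counts were analysed with edgeR 4.0.16 in R 4.3.3 (filterByExpr, trimmed mean of M values, robust glmQLFit, glmQLFTest, two-sided, Benjamini-Hochberg over 12929 genes). Gene lengths were recovered from counts and the deposited FPKM, per group, and entered as an offset in a second fit of 12842 genes. Alternatives used DESeq2 1.42.0, limma 3.58.1, other scalings and filters, a replicate block and leaving out each library. The test was checked on simulated counts in which few genes were changed, so that check does not cover data with 85.0% of genes called. Gene coordinates and promoters are from RefSeq. Total counts of 16018260 to 19357144 per library limit the precision. The common biological coefficient of variation was 0.044 over both groups, 0.056 in the controls and 0.025 in the knockout libraries. Libraries of the same group differed by more than sampling noise. The chi-square over its degrees of freedom was 2.97 to 7.84 between controls and 1.74 to 2.03 between knockout libraries.

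The members and lists were chosen with earlier results of these data known. Per-library values are given for the complex II subunits, CYC1, UQCRFS1, SURF1, the 4 largest non-overlapping calls and the value nearest 0 in each complex, isoform families, and calls lost or reversed with lengths. Of other lists, up to 4 called genes with the smallest p could be named. Other members with per-library values, and those given only by their log2 fold changes, were added to complete each group.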

Additional observations from a re-analysis of the deposited data

How the results depend on the processing

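The 16 higher and 33 lower member calls stayed within 1.5 times under every scaling, filter and count tool tried: 15 to 17 higher and 26 to 34 lower with library-size, DESeq2 or upper quartile factors, no filter, a mean of at least 10 CPM, DESeq2, limma-voom, FPKM or the length offset. In the 14 settings on counts that tested all 55 members (leaving out the minimum of 10 CPM, which did not test COX16, SDHAF4 and UQCRHL, and the test against a fold change), 12 of the 16 higher calls (all but UQCRFS1, COX7B, COX11 and COX17) and 27 of the 33 lower calls (all but UQCRC2, UQCR10, COX6C, COX16, SURF1 and ATP5MC2) were kept. Leaving out 1 library gave 13 to 16 higher and 31 to 34 lower members, 10697 to 11132 calls over all genes, a median log2 fold change of -0.249 to -0.178 and an ATP5MC1 share 8.27 to 9.14 percentage points above the control. That difference was 8.74 points in FPKM and 10.1 points in counts. The median, -0.205 as reported, was -0.118 with upper quartile factors, -0.115 above 10 CPM, -0.342 on log2(FPKM + 0.1) and -0.430 with the length offset. Upper quartile factors moved the log2 fold changes of all genes by a median of 0.087, and the minimum of 10 CPM moved those of 9752 genes by a median of 0.088. Among genes whose recovered lengths agree within 1%, 4 members were tested, 2 higher and 2 lower, with a median of 0.132 and 3451 of 4057 genes called, too few members to describe the complexes. Against a fold change of 1.5, 2 members were higher and 13 lower, and 5967 genes were called in all.

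With gene length, 12 named members changed sign: under the length offset, log2(FPKM + 0.1) and log2(FPKM + 1) the values were 1.29, 1.37 and 1.34 for ATP5IF1, 0.36, 0.45 and 0.44 for ATP5MC2, 0.16, 0.24 and 0.24 for ATP5PF, -0.97, -0.88 and -0.86 for COX17, -0.49, -0.40 and -0.39 for COX5A, 0.01, 0.10 and 0.10 for COX6C, -2.38, -2.29 and -2.27 for COX7B, 0.36, 0.45 and 0.44 for CYC1, -0.64, -0.55 and -0.45 for SDHAF4, 0.34, 0.43 and 0.42 for SDHC, 0.006, 0.094 and 0.093 for UQCRC2 and -1.25, -1.16 and -1.14 for UQCRFS1. The recovered lengths enter each of these settings, and the cause of the difference in length was not tested. With the replicate block 15 members were higher and 33 lower, the median was -0.204, and COX7B lost its call (0.11, adjusted p = 0.0542). The pairing was not borne out, as deviations of same-numbered libraries correlated at 0.0047, -0.081 and -0.049. The 6 untested members had too few counts for a test, and COX16, SDHAF4 and UQCRHL had means under 10 CPM; whether depth or low expression sets this was not tested.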
